A study of Juglans regia with 15 samples.

Results

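JrANR (JreChr09G12363) and its 5 homologs in walnut (JreChr07G11524, JreChr02G11482, JreChr02G11484, JreChr02G11480 and JreChr01G13005) were followed in the endopleura, the thin skin around the walnut kernel. They were taken by gene identifier as the homologs that the study placed in 1 gene tree with JrANR, and all 6 were found among the 39414 genes of the expression table. The tissue was taken from Juglans regia cultivar Linzaoxiang at 5 ages, 35, 63, 91, 119 and 147 days after pollination (DAP). Each age has 3 libraries, and each library pools the endopleuras of 7 nuts. No treatment was applied, so the comparisons are between stages of 1 cultivar, and whether replicate pools came from different trees is not stated in the sources used here. Expression is given as FPKM, fragments scaled by transcript length and by the size of the library, a scale that allows the levels of different genes to be compared per length. The question was which homolog supplied most of the family's transcript at each stage, and how the leading homolog changed as the seed coat developed.

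Anthocyanidin reductase (ANR, named BANYULS in Arabidopsis) converts anthocyanidins into flavan-3-ols, the building blocks of condensed tannins, and is best known from the seed coat. Dihydroflavonol 4-reductase (DFR) works earlier in the pathway, and its products, the leucoanthocyanidins, feed both anthocyanin and tannin synthesis. Both enzymes belong to 1 family of NADPH-dependent reductases. In the study's gene tree JrANR stands with Arabidopsis ANR, JreChr07G11524 stands with Arabidopsis DFR, and the other 4 genes stand with BEN1, a reductase linked to brassinosteroid hormones in Arabidopsis. The names ANR, DFR and BEN1 are used for the walnut genes only in this sense of tree neighbours, since no enzyme activity was measured.

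The study amplified part of JrANR, and its primer pair is shown because it is the only sequence of a member in the files used here. The stretch listed for the pair lies inside the deposited coordinates of JrANR. Each primer has 18 bases and is written 5′ to 3′, with no base marked.
forward primer: tcaatgggacgggtttag
reverse primer: tctggcacaatcggtttc

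On the authors' J. regia genome JrANR occupies chr9:7498722-7501474 (2753 bp) and JreChr07G11524 occupies chr7:29492024-29494934 (2911 bp). JreChr02G11480 (2248 bp), JreChr02G11482 (2363 bp) and JreChr02G11484 (2179 bp) lie together within 23466 bp, at chr2:26410989-26434454. The single other gene with expression values in that interval, JreChr02G11481, was listed at 0 FPKM in all 15 libraries. Genes of the genome without such values cannot be seen here. JreChr01G13005 lies alone at chr1:47566071-47567794 (1724 bp). The files give gene spans only, so exons, introns and untranslated regions are not described.

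FPKM values summed to between 851621 and 1113620 per library. Relative depth read from the steps of low values differed by at most 1.35-fold, while the absolute number of reads is unknown. Libraries of the same stage correlated with Pearson's r between 0.964 and 0.992 across genes. The endopleura covers the embryo, so 4 genes (2 glutelins, an oleosin and the fatty acid desaturase JrFAD2) were read alongside and are called embryo genes here. The study reported high embryo expression for JrFAD2, whereas the glutelins and the oleosin were taken by annotation as seed storage genes. The summed level of the 4 genes was 6.18 to 23.4 FPKM at 35 DAP and 1708 to 19888 FPKM in the 12 later libraries. It was highest in replicate 2 of 119 DAP. In bulk tissue, fewer cells of a type and less RNA per cell cannot be told apart.

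The transcript of the family was almost wholly that of a pair of genes, and the leading gene of the pair changed during development. JreChr07G11524, the DFR neighbour, contributed 83.7% ± 1.27 (SD, n = 3) of the summed FPKM of the 6 genes at 35 DAP and 22.7% ± 0.883 at 147 DAP. JrANR contributed 15.9% ± 1.14 at 35 DAP and 76.2% ± 0.610 at 147 DAP. Both shares crossed between 91 and 119 DAP. JreChr07G11524 was the higher gene in all 9 libraries of the first 3 stages, and JrANR was the higher gene in all 6 libraries of the last 2 stages.

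The share of JrANR moved in 1 direction through all 5 stages. At 35 DAP the 3 libraries gave 16.5%, 16.5% and 14.5%. The values at 63 DAP were 34.2%, 34.0% and 33.4%, with a mean of 33.9% ± 0.387. Endopleura at 91 DAP gave 42.4%, 41.9% and 44.5%, with a mean of 42.9% ± 1.37. No library of one of these stages reached the values of the next. At 119 DAP the share was 62.1%, 58.7% and 57.1%, with a mean of 59.3% ± 2.57. The last stage gave 76.4%, 75.5% and 76.7%. These 5 groups of libraries did not overlap at any step, and the widest spread within a stage, at 119 DAP, was smaller than the distance to either neighbouring stage.

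The share of JreChr07G11524 was its mirror image, with 65.1% ± 0.115 at 63 DAP, 56.2% ± 1.17 at 91 DAP and 39.4% ± 2.53 at 119 DAP. The other 4 genes together never held more than 1.82% of the sum in a library. JreChr02G11482 took most of that remainder, with stage means between 0.253% at 35 DAP and 1.07% at 119 DAP.

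**Figure D1:**
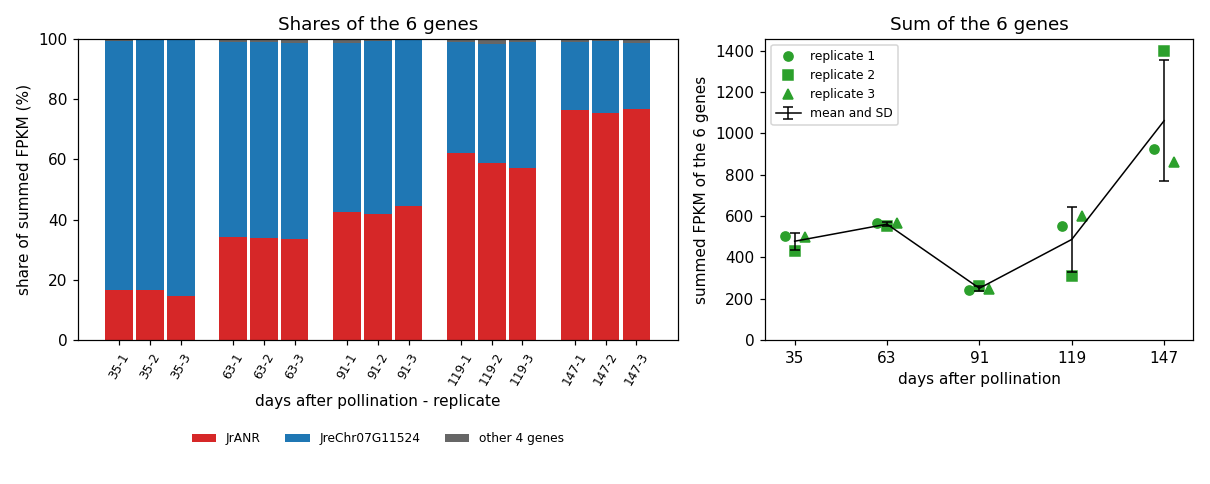
Left, share of the summed FPKM of the 6 genes (%) held by JrANR, JreChr07G11524 and the other 4 genes in each of the 15 libraries, labelled by days after pollination and replicate. Right, summed FPKM of the 6 genes by library against days after pollination, with the mean and SD of 3 libraries and points of an age set side by side. The JrANR share climbs from 14.5% in the lowest library at 35 DAP to 76.7% in the highest at 147 DAP, whereas the sum falls to its lowest mean at 91 DAP.

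The summed level of the family did not follow the shares. The sum averaged 478 ± 42.2 FPKM at 35 DAP and 561 ± 8.13 FPKM at 63 DAP. It was lowest at 91 DAP, where the 3 libraries gave 242, 263 and 246 FPKM. At 119 DAP the libraries gave 551, 308 and 602 FPKM, so replicate 2 lay far below the other pair. The highest sums came at 147 DAP, with 924, 1400.1 and 862 FPKM and a mean of 1062 ± 294. As a part of all FPKM in a library the family made up 0.0555%, 0.0574%, 0.0254%, 0.0473% and 0.101% at the 5 stages in order of age. The handover of the leading place therefore fell in the interval in which the family's total rose again from its minimum.

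JrANR itself was at 83.5, 71.0 and 72.6 FPKM in the libraries of 35 DAP. It was at 194, 187 and 189 FPKM at 63 DAP, and at 103, 110.2 and 109 FPKM at 91 DAP. Every library of 63 DAP was thus above every library of both neighbouring stages. At 119 DAP the levels were 342, 181 and 344 FPKM, and replicate 2 lay above all 3 libraries of 91 DAP but below all 3 of 63 DAP. The levels at 147 DAP were 706, 1058 and 661 FPKM, all above those of 119 DAP. By mean level JrANR ranked 2109th among all genes at 35 DAP and 103rd at 147 DAP, with ranks of 660, 1331 and 371 at the stages between.

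Changes were tested with limma on log2(FPKM + 1), fitted on 22310 genes that reached 1 FPKM in at least 3 libraries, with Benjamini-Hochberg adjustment over all of them and 0.05 as the threshold. On this scale JrANR rose by 1.32 ± 0.22 (SE) from 35 to 63 DAP (adjusted p = 0.000190), and 1283 genes rose more. By 91 DAP it had fallen by 0.82 (adjusted p = 0.0131), and it was up by 1.36 at 119 DAP (adjusted p = 0.000844) and by a further 1.51 at 147 DAP (adjusted p = 0.000132). From the first to the last stage the rise was 3.37 (adjusted p = 5.91e-09), 10.7-fold between the stage means, and 580 genes rose more. JrANR was called in all 5 comparisons, with 1 fall and 4 rises, so its level did not climb at every step although its share did.

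JreChr07G11524 was highest early. Its libraries gave 419, 356 and 425 FPKM at 35 DAP and 368, 359 and 368 FPKM at 63 DAP, which overlapped and did not differ in the test (log2 change -0.13, limma adjusted p = 0.687). At 91 DAP the levels were 137, 151 and 135 FPKM. This fall of 1.37 ± 0.23 (SE) on the log2 scale was its one called step (limma adjusted p = 0.000676), and the libraries did not overlap. The later values were 203, 121 and 252 FPKM at 119 DAP and 207, 332 and 189.8 FPKM at 147 DAP, and both stages overlapped their predecessor. Neither later step passed the test, with log2 changes of 0.38 (limma adjusted p = 0.290) and 0.36 (limma adjusted p = 0.258). The second of these was 0.06 without replicate 2 of 119 DAP and 0.58 without replicate 3 of 119 DAP, and neither passed. Over the whole series the gene fell by 0.76 (limma adjusted p = 0.0103), to 0.607 of its first mean. Without replicate 3 of 147 DAP the fall was 0.60 with an adjusted p of 0.0526, and without replicate 2 of 119 DAP the step from 91 to 119 DAP became a called rise of 0.68 (adjusted p = 0.0335).

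**Figure D2:**
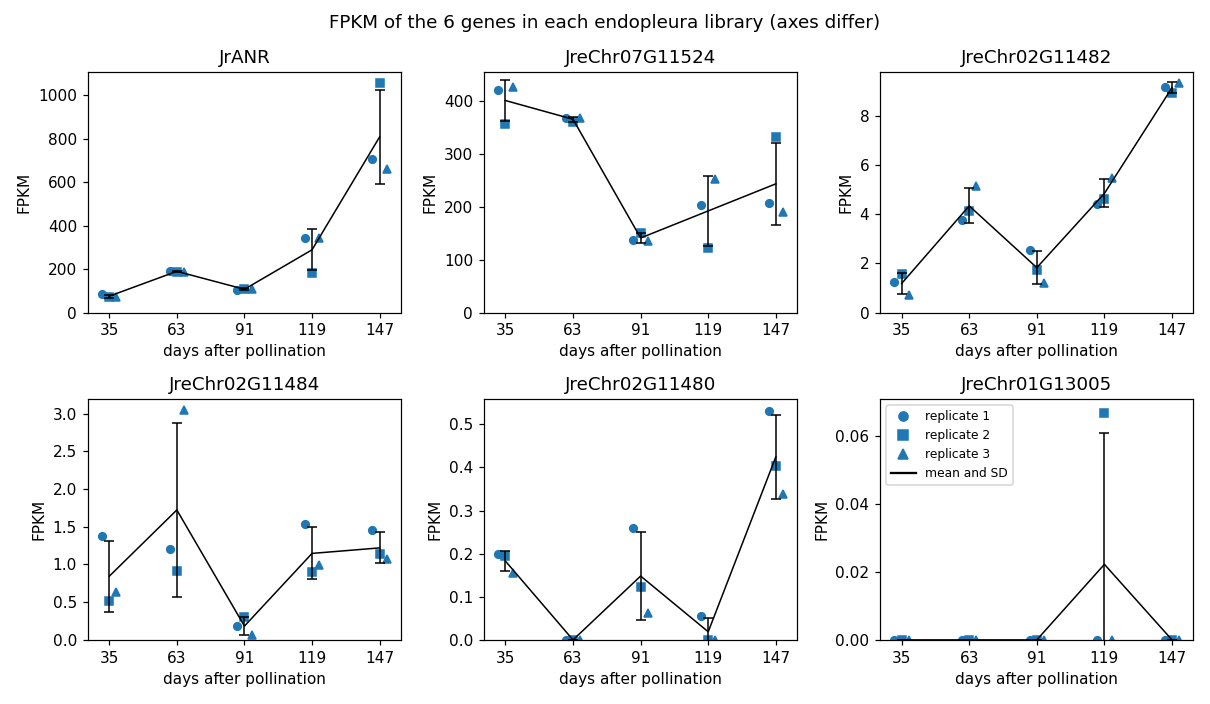
FPKM of each of the 6 genes against days after pollination, 1 panel per gene with its own axis starting at 0. Points are libraries, marked by replicate and set side by side at each age for legibility, and lines join stage means with SD bars (n = 3). JrANR ends at a mean of 808 FPKM and JreChr07G11524 at 243 FPKM, whereas no library of the other 4 genes exceeds 9.33 FPKM.

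The ratio of the pair within a library showed the handover with little scatter. JrANR stood at 0.199, 0.199 and 0.171 times the level of JreChr07G11524 in the libraries of 35 DAP. The ratios were 0.527, 0.521 and 0.514 at 63 DAP, and 0.752, 0.730 and 0.808 at 91 DAP. All 9 ratios were below 1. At 119 DAP they were 1.69, 1.49 and 1.36, and at 147 DAP 3.41, 3.18 and 3.48. Both genes were lowest for their stage in replicate 2 of 119 DAP. That library had 19888 FPKM of the embryo genes against 6310 and 3495 FPKM in replicates 1 and 3. Its ratio lay between those of replicates 1 and 3, and a link of the levels or the ratio to the embryo genes was not tested. The levels of the 2 genes overlapped at 119 DAP when libraries were not matched, since the lowest JrANR value was 181 FPKM and the highest JreChr07G11524 value was 252 FPKM.

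The log2 ratio was higher at each step, by 1.46, 0.55, 0.98 and 1.15 in order of age. From first to last stage it went up by 4.15, a 17.7-fold change. In each of these 5 comparisons the libraries did not overlap and the two-sided exact permutation test gave p = 0.10 (adjusted over the 5 comparisons, 0.10), which is the smallest value that 3 against 3 libraries allow. At the step from 63 to 91 DAP both genes fell, JreChr07G11524 to 0.386 and JrANR to 0.566 of its previous mean, so the ratio was higher at 91 DAP although both levels were lower. When the same ratio to JreChr07G11524 was formed for all other tested genes, 28.4%, 74%, 5.46% and 4.67% of them rose without overlap at the 4 steps in order, and 35 genes (0.157% of 22309), JrANR among them, did so at all 4 steps. The high share at the step to 91 DAP goes with the fall of JreChr07G11524 itself.

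**Figure D3:**
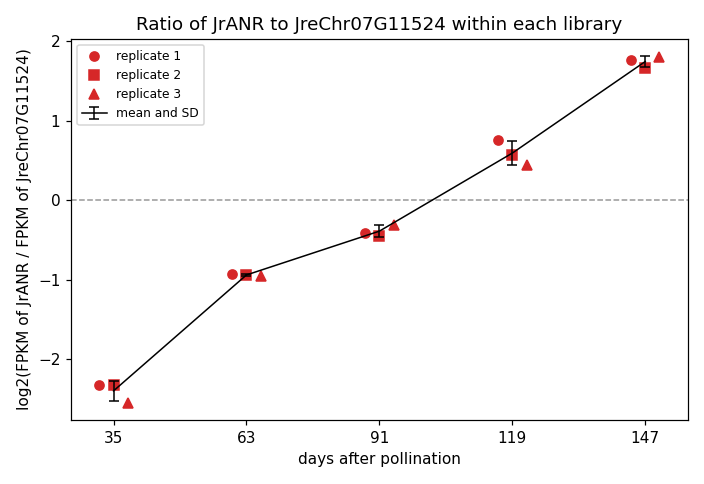
log2 of the FPKM of JrANR over the FPKM of JreChr07G11524 in each library against days after pollination, with the mean and SD of 3 libraries. Points of an age are set side by side for legibility, and the dashed line marks equal levels. All 9 libraries up to 91 DAP lie below it and all 6 libraries from 119 DAP lie above it.

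Among the BEN1 neighbours, JreChr02G11482 was the highest at every stage and took a course like that of JrANR at a far lower level. Its libraries gave 1.25, 1.57 and 0.725 FPKM at 35 DAP, then 3.75, 4.12 and 5.13 FPKM at 63 DAP, and 2.56, 1.71 and 1.21 FPKM at 91 DAP. The values were 4.41, 4.63 and 5.48 FPKM at 119 DAP and 9.15, 8.91 and 9.33 FPKM at 147 DAP. Consecutive stages did not overlap, whereas 35 DAP overlapped 91 DAP and 63 DAP overlapped 119 DAP. The log2(FPKM + 1) changes were 1.301 ± 0.19 (SE), -0.94, 1.07 and 0.80 at the 4 steps (limma adjusted p = 7.61e-05, 0.00276, 0.00194 and 0.00560) and 2.23 from 35 to 147 DAP (limma adjusted p = 1.31e-07). Across the 15 libraries its Pearson's r with JrANR was 0.933, given as a description since the libraries of a stage share their stage.

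JreChr02G11484 stayed near the limit of the filter, with 0.0613 to 3.04 FPKM and 7 of 15 libraries at 1 FPKM or more. It was lowest at 91 DAP, with 0.183, 0.304 and 0.0613 FPKM against 1.21, 0.916 and 3.04 FPKM at 63 DAP, a called fall of 1.13 (limma adjusted p = 0.00409). The values were 1.54, 0.903 and 0.996 FPKM at 119 DAP, a called rise of 0.85 (limma adjusted p = 0.0293), but leaving out any 1 library of 91 DAP or replicate 1 of 119 DAP gave adjusted p-values of 0.0542 to 0.107, and testing without the filter gave 0.0742. The last stage, at 1.45, 1.13 and 1.07 FPKM, did not pass the test against 119 DAP (0.06, limma adjusted p = 0.895) or 35 DAP (0.29, limma adjusted p = 0.312).

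The remaining genes of the family were barely listed. JreChr02G11480, the first of the chromosome 2 members by position, was listed at 0 in 5 libraries, all 3 of 63 DAP and 2 of 119 DAP. It was at 0.531, 0.403 and 0.339 FPKM at 147 DAP, where all 3 libraries were above the rest of the series. JreChr01G13005 was listed at 0 in 14 libraries and at 0.0668 FPKM in replicate 2 of 119 DAP. Neither gene reached the filter, so 4 of the 6 genes were tested.

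JreChr02G11482 came next after the pair and JreChr02G11484 followed it at all 5 stages, and their libraries overlapped at 35 DAP alone. JreChr02G11484 and JreChr02G11480 overlapped at 91 DAP alone. The last places were held by JreChr02G11480 and JreChr01G13005, which were both listed at 0 in all libraries of 63 DAP and in replicate 3 of 119 DAP. The gap between the pair and the rest was wide at every stage, since the lowest JrANR library, at 71.0 FPKM, stood above the highest JreChr02G11482 library, at 9.33 FPKM.

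Of the 4 tested genes, JrANR and JreChr02G11482 rose and none fell from 35 to 63 DAP, where 46.7% of all tested genes were called, 19.3% higher and 27.4% lower. All 4 fell in the interval to 91 DAP, against 26.5% of tested genes called, 7.59% higher and 18.9% lower. At 119 DAP 3 had risen against 18.3% called, 9.65% higher and 8.65% lower, and JreChr07G11524 was the gene not called. The last step brought 2 rises, again of JrANR and JreChr02G11482, against 35.9% called, 14.1% higher and 21.8% lower. Between the first and last stage JrANR and JreChr02G11482 rose and JreChr07G11524 fell, in a comparison where 67.7% of tested genes were called, 24% higher and 43.7% lower. In each of the 5 comparisons the members called were also those whose libraries did not overlap between the stages. Without overlap were 60.9%, 40.2%, 31.3% and 43.7% of all tested genes at the 4 steps and 75.2% between 35 and 147 DAP. Over all tested genes the median log2 change there was -0.27, and it lay between -0.10 and 0 at the 4 steps. Other scalings moved these shares of higher and lower calls, with 35.4% of calls higher in the main fit from 35 to 147 DAP, 49.9% after quantile normalization and 25.0% after scaling to equal sums, while the calls of JrANR and JreChr07G11524 stayed the same.

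The genes next to the pair stood at lower levels than the member that each of them adjoins. JreChr09G12362, 8455 bp from JrANR, reached at most 2.57 FPKM, and JreChr09G12364, on the other side, reached at most 0.209 FPKM. Of the neighbours of JreChr07G11524, JreChr07G11523 was listed at 0 throughout. JreChr07G11525, 2794 bp away, was highest at 35 DAP with a mean of 82.5 ± 2.17 FPKM and fell by 1.27 on the log2 scale by 63 DAP (limma adjusted p = 8.09e-05), a step at which JreChr07G11524 did not pass the test.

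By Pearson's r of log2(FPKM + 1) over the 15 libraries, the tested genes most like JrANR were JreChr02G11831 (r = 0.989) and JreChr05G11706 (r = 0.987). JreChr02G11831 had means of 41.9, 98.9, 48.1, 186 and 493 FPKM at the 5 stages, thus the same dip at 91 DAP. JreChr05G11706 went from 3.03 ± 0.766 to 116 ± 38.8 FPKM. The genes most like JreChr07G11524 were JreChr04G10772 (r = 0.956) and JreChr04G12110 (r = 0.943), which fell from 28.0 and 23.0 FPKM at 35 DAP to 8.44 and 6.69 FPKM at 91 DAP. None of these 4 is annotated in the sources used here. The r of JrANR with JreChr07G11524 was -0.0854. These values are descriptions, since libraries of a stage share their age.

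Other genes with an annotation related to flavonoids were read from a list of 16 genes, of which 9 passed the filter. The list was taken from annotations in the study's supplementary tables. Those mostly cover genomic regions from its selection scans and association tests, not the whole genome. Pathway genes elsewhere in the genome can therefore be missing, and counts over the list do not describe the whole pathway. The list includes isoflavone reductase homologs, for which a part in this pathway is not shown here. Of these, JreChr01G13452 is among the rises from 35 to 147 DAP counted next, and JreChr01G13428 is the fall. From 35 to 147 DAP 5 of the 9 rose, 1 fell and 3 did not pass the test, where 24% of all tested genes were called higher and 43.7% lower. The median log2 change of the 9 was 0.98 beside -0.27 for all tested genes. The same 5 genes were called higher in all 22 alternatives, whereas 0 falls were called after quantile normalization and 4 after scaling to equal sums or without replicate 3 of 35 DAP. At the steps in order of age, 4, 1, 3 and 1 genes of the list were called higher and 1, 2, 0 and 1 were called lower. Over all tested genes the shares called higher were 19.3%, 7.59%, 9.65% and 14.1%, and those called lower 27.4%, 18.9%, 8.65% and 21.8%. The list's median was -0.53 from 63 to 91 DAP, the step at which all 4 tested homologs fell.

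A chalcone synthase gene of the list, JreChr02G10304, whose enzyme opens the flavonoid pathway, went up, down and up again as JrANR did. Its libraries gave 63.9, 48.2 and 47.8 FPKM at 35 DAP, then 169, 196 and 195 FPKM at 63 DAP, and 49.4, 52.3 and 129 FPKM at 91 DAP. It was at 553, 223 and 529 FPKM at 119 DAP and at 571, 1088 and 683 FPKM at 147 DAP, and replicate 2 of 119 DAP was again the lowest of its stage. The changes were 1.80, -1.41 and 2.52 at the first 3 steps (limma adjusted p = 0.00134, 0.0134 and 0.000515) and 0.90 at the last, which did not pass (limma adjusted p = 0.0799). Its r with JrANR was 0.956, beside -0.0740 with JreChr07G11524. The log2 ratio of JrANR to this gene had stage means of 0.51, 0.03, 0.63, -0.54 and 0.07, with no steady direction, whereas that of JreChr07G11524 went from 2.92 ± 0.22 (SD) at 35 DAP to -1.67 ± 0.20 at 147 DAP.

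A further pair of genes in the list carries the annotation dihydroflavonol 4-reductase and lies outside the 6 homologs. JreChr11G10846 was at 8.62, 9.97 and 8.65 FPKM at 35 DAP and at 59.3, 85.1 and 51.5 FPKM at 147 DAP, a rise of 2.69 (limma adjusted p = 1.68e-08). JreChr11G10794 rose by 2.32 over the same interval (limma adjusted p = 1.37e-05), from a mean of 1.87 ± 0.291 to 13.3 ± 1.54 FPKM. Both therefore rose while JreChr07G11524, the DFR neighbour of the tree, fell, and both had their largest step from 91 to 119 DAP (1.56 and 2.14). Even at 147 DAP the mean of JreChr11G10846, 65.3 FPKM, stayed below the lowest JreChr07G11524 library of that stage, 189.8 FPKM.

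JreChr13G10907, annotated as flavonol synthase or flavanone 3-hydroxylase, rose from 8.40 to 17.7 FPKM (log2 change 0.98, limma adjusted p = 0.00120). JreChr03G12442, annotated as leucoanthocyanidin dioxygenase, an enzyme that supplies the anthocyanidin substrate of ANR, had means of 8.95 and 4.02 FPKM at the first and last stage, and this did not pass the test (-0.87, limma adjusted p = 0.0575). The change was -1.29 without replicate 3 of 35 DAP (adjusted p = 0.00686) and also passed after scaling to equal sums (-1.12, adjusted p = 0.0199). At -0.87 it passed with only the 2 stages in the fit (limma adjusted p = 0.0481). The same value passed without replicate 1 or replicate 2 of 63 DAP (limma adjusted p = 0.0405 and 0.0381). The anthocyanidin glucosyltransferase gene JreChr15G10826, whose enzyme class leads anthocyanidins towards anthocyanins instead, stayed between 0.420 and 1.61 FPKM and was not called in the 5 comparisons of the main fit. From 35 to 147 DAP it changed by -0.33 (limma adjusted p = 0.0894), by -0.49 after scaling to equal sums (adjusted p = 0.0159), by -0.46 without replicate 3 of 35 DAP (adjusted p = 0.0322) and by 0.24 after quantile normalization (adjusted p = 0.226). Among the isoflavone reductase homologs JreChr01G13452 rose from 0.153 to 37.2 FPKM, JreChr01G13428 fell by 1.07 (limma adjusted p = 0.00354, but 0.0841 after quantile normalization), and JreChr15G10250 peaked at 63 DAP with a mean of 2193 FPKM.

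**Figure D4:**
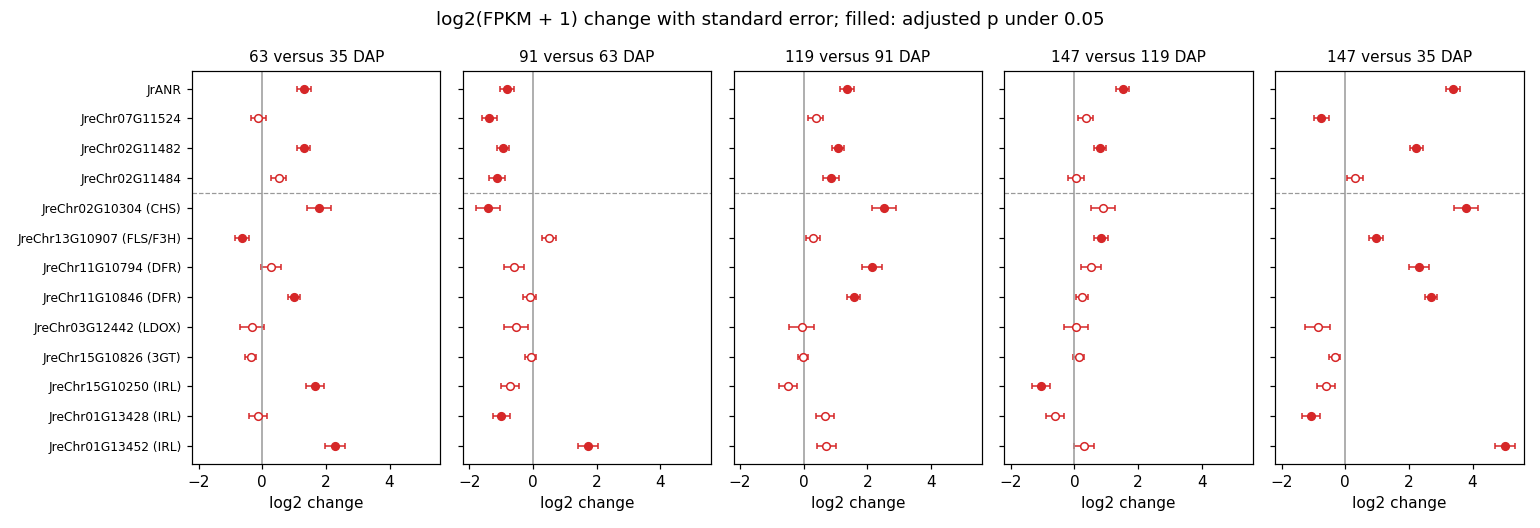
Change in log2(FPKM + 1) with its standard error in the 5 comparisons, for the 4 tested homologs (above the dashed line) and the 9 tested genes of the flavonoid list (below). Filled points have an adjusted p under 0.05. CHS is chalcone synthase, FLS/F3H flavonol synthase or flavanone 3-hydroxylase, LDOX leucoanthocyanidin dioxygenase, 3GT anthocyanidin glucosyltransferase and IRL isoflavone reductase homolog. All 4 homologs lie left of 0 at 91 versus 63 DAP, and JrANR reaches 3.37 at 147 versus 35 DAP.

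The embryo genes moved with the stages, and their part in the results was not tested. Their summed level averaged 12.7, 3552, 7346, 9897 and 2226 FPKM in order of age, and of the 4 genes only the glutelin JreChr03G12610 was listed at 0, in 1 library. The share of JrANR rose at every step, while this sum rose up to 119 DAP and dropped at 147 DAP. At that last step the means of both glutelins and JrFAD2 fell. The oleosin JreChr12G10222 instead rose at every step, with means of 0.510, 157, 419, 581 and 1050 FPKM. The study also profiled the JrANR homologs in the embryo and reported JrANR there at a moderate level that stayed stable. The levels and shares given here can thus include transcript from embryo tissue, and the size of that part was not tested. How reads that match several homologs were counted is not stated in the sources used here, so reads exchanged between similar members were not tested.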

How the data were processed

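Total RNA of 15 pools of endopleura was sequenced. Alignment to a J. regia assembly of the authors used HISAT2 2.1.0, quantification used StringTie 1.3.5, and the authors deposited FPKM values per gene and library. FPKM is scaled by length and mapped fragments, so a few abundant transcripts can lower all others. The top 10 genes of a library held on average 6.94% of its summed FPKM at 35 DAP. At 63, 91, 119 and 147 DAP they held 17.6%, 18.7%, 22.6% and 25.7%. The number of reads is unknown, and counting intervals and count models were not used.

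Genes that reached 1 FPKM in 3 or more libraries were tested on log2(FPKM + 1) with limma 3.58.1 in R 4.3.3 (all 15 libraries in 1 fit, empirical Bayes with trend, Benjamini-Hochberg adjustment). Shares and sums are descriptions. The ratio of JrANR to JreChr07G11524 was compared by two-sided exact permutation. Scripts were tested on simulated data. Alternatives were the pseudocount (0.1), quantile and equal-sum scaling, no filter, no trend, the 2 stages alone, a replicate block and leaving out each library.

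Named were the 6 homologs, a flavonoid list, 4 embryo genes, genes adjacent to members and the 2 genes most like each of the leading pair. The members and lists were chosen with earlier results of these data known. RefSeq names matched 0 of 39414 identifiers, so protein and promoter sequences are not analysed here. Same-stage files were not identical, and p-values measure the spread between pools only.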

Additional observations from a re-analysis of the deposited data

How the results depend on the processing

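The calls of JrANR and JreChr02G11482 were the same in all 110 alternative values of each. The change in the log2 ratio of JrANR to JreChr07G11524 was positive in all 40 alternative values, and its exact test cannot pass the threshold under any of them. JreChr07G11524 kept 108 of 110 calls. Leaving out 1 library gave -1.005 to -0.60 from 35 to 147 DAP (the call was lost without replicate 3 of 147 DAP) and 0.16 to 0.68 from 91 to 119 DAP (newly called without replicate 2 of 119 DAP). The log2 change of JreChr02G11484 from 119 to 147 DAP, never called, was -0.0248 without replicate 2 of 119 DAP and -0.0182 without replicate 1 of 147 DAP, within a range of -0.0248 to 0.184 when 1 library was left out. From 35 to 63 DAP this gene became a call after quantile normalization (0.65, adjusted p = 0.0361), without replicate 1 of 35 DAP (0.71, adjusted p = 0.0456) and without replicate 2 of 63 DAP (0.73, adjusted p = 0.0358), and it did so from 35 to 147 DAP after quantile normalization (0.80, adjusted p = 0.00912). With only the 2 stages in the fit, 1820 genes instead of 4082 were called from 91 to 119 DAP and 5319 instead of 8018 from 119 to 147 DAP, where fewer samples entered. Leaving out 1 library gave 2612 (without replicate 2 of 91 DAP) to 4320 calls from 91 to 119 DAP. The share of JrANR was 77.0% at 147 DAP over the leading pair alone and 34.4% at 63 DAP after quantile normalization. The cause of the other changes was not tested.

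Of 30 correlations between libraries of the same replicate number, 10 were over 0.1, with a median of -0.03 and a range of -0.40 to 0.41. Libraries of different number were not compared in this way, so the values do not settle whether the numbers pair the libraries. With a replicate block JrANR changed by -0.82 from 63 to 91 DAP (adjusted p = 0.0233), and no call of a homolog changed, while JreChr15G10826 of the flavonoid list became a call from 35 to 147 DAP (-0.33, adjusted p = 0.0378). Absolute depth is unknown, so values listed at 0 cannot be given a limit.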
